A study of Mus musculus with 4 samples.

Results

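The 44 mouse genes whose symbols have the form *Col*, number, *a*, number encode the chains of the collagen family. They were followed through RNA-seq of sympathetic ganglia (SG) from thoracic levels T1–T4, the ganglia that innervate interscapular brown fat. Membership was set by symbol alone, though with earlier results of these data known. Of the 44 genes, 42 were listed in at least 1 library, out of 17667 genes listed in all. The study asked how the neurotrophin NT-3 and its receptor TRKC act on the sympathetic supply of fat. It had 4 libraries, each a pool of SG from 6 male C57BL/6 mice aged 12 weeks after 1 day at 5 °C. WT mice gave 2 libraries, WT 1 and WT 2. AdNTF3-Tg mice, which carry a transgene that drives NT-3 in adipocytes from the adiponectin promoter, gave 1, and TRKC+/- mice, which have a single functional copy of the NT-3 receptor gene *Ntrk3* in all cells, gave 1. Every group was cold-exposed, so no comparison tests cold itself.

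Collagens are triple helices of 3 chains, which may be alike or come from different genes. Fibrillar collagens pack into the banded fibrils that give connective tissue its tensile strength. Type IV collagen forms the sheet-like network of basement membranes, to which types XV and XVIII are attached. Smaller families sit on fibril surfaces, form beaded filaments or span the cell membrane. In a ganglion, collagen fills the capsule and the spaces between neurons, and basement membranes enclose satellite glia, Schwann cells and vessels.

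The libraries held from 8665955 to 8894985 counted reads. Levels are given as FPKM, the deposited value, in which reads are scaled to gene length and to the library's total. A mutant is set against the mean of both WT libraries as a log2 ratio after adding 0.1 FPKM, which understates the change of low genes, and a gene counted as higher or lower from an absolute value of 0.5, the study's cutoff. With 1 library per mutant these ratios carry no test. The 95% intervals given are exact Clopper-Pearson intervals of the read ratio and cover counting error only. The series' design text pairs each mutant with WT mice, but the labels do not tell which WT library belongs to which, so both are shown.

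*Ntrk3* was not lower in the library labelled TRKC+/-. It was at 2.45 and 2.52 FPKM in the WT libraries, 2.72 in the library labelled TRKC+/- and 2.32 in AdNTF3-Tg. The label was thus not borne out by this transcript, and which part of the gene the allele lacks is not given in the sources used here. *Ntf3*, the gene of NT-3, was listed in the library labelled TRKC+/- alone, with 2 reads. The transgene is driven in adipocytes, so its RNA in ganglia is no check of the AdNTF3-Tg label. The WT libraries also differed from each other in muscle RNA: 5 skeletal muscle markers summed to 69.4 FPKM in WT 1 and 2.33 in WT 2, against 31.8 in the library labelled TRKC+/- and 26.6 in AdNTF3-Tg.

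The whole ganglion was sequenced, so no collagen transcript can be placed in the capsule. In bulk tissue, fewer cells of a type and less RNA per cell cannot be told apart. The 6 sympathetic neuron markers summed to between 8157 and 8793 FPKM per library, led by *Th*, *Npy* and *Dbh*. Of the glial markers, *Fabp7* was between 210.87 and 341.7 FPKM, *Sox10* between 36.8 and 50.3 and *S100b* between 16.57 and 25.5. The 7 fibroblast markers, led by *Dcn*, summed to between 185 and 248 FPKM. Of 8 cartilage and bone markers 3 were listed, *Comp*, *Chad* and *Acan*, with a sum between 0.42 and 0.70 FPKM. These levels place the collagen genes neither in the capsule nor in another compartment.

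Upstream sequences are shown for 4 fibrillar genes: *Col5a3*, the highest collagen gene, *Col5a1*, a partner chain at a much lower level, and *Col1a2* and *Col3a1*, the next highest of the class. They are from RefSeq on GRCm38.p6, 5′ to 3′ on the gene's strand, and end before the outermost annotated start. Capitals mark CCAAT or its complement ATTGG on either strand, and TATAAA on the gene's strand. The motifs do not overlap.
*Col5a3*, chr9:20815118-20815317, minus strand: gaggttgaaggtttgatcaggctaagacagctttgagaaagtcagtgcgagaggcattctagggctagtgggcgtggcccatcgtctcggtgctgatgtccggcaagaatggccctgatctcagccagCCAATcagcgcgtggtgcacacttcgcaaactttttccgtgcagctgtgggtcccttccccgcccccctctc
*Col5a1*, chr2:27886175-27886380, plus strand: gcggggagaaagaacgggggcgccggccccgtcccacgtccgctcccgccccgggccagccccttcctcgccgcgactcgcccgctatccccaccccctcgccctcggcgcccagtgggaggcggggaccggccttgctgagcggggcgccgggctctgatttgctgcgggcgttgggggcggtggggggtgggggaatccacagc
*Col1a2*, chr6:4505368-4505617, plus strand: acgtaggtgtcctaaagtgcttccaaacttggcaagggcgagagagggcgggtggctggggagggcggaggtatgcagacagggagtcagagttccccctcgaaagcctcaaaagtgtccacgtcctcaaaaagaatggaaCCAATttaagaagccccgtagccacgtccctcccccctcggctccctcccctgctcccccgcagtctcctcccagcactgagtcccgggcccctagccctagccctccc
*Col3a1*, chr1:45311288-45311537, plus strand: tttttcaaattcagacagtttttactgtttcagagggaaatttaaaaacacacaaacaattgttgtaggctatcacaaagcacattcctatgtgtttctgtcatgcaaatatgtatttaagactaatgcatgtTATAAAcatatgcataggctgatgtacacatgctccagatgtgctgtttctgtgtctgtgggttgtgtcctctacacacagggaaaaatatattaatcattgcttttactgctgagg

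The *Col5a3* and *Col1a2* stretches each held 1 CCAAT. Its first base lay 122 and 109 bases before the start from which the 250-base window was taken. For *Col1a2* the printed stretch ends 1 base before that start. For *Col5a3* it ends 51 bases before it, because the outermost annotated start lies farther upstream. *Col3a1* held 1 TATAAA, 117 bases before its start, and *Col5a1* held neither. GC content was 58.0% for *Col5a3*, 77.7% for *Col5a1*, 62.0% for *Col1a2* and 35.2% for *Col3a1*. Of 33 listed collagen genes with a window in the table, 12 held CCAAT or ATTGG in the 250 bases before the start, where 33.8% of 32851 windows did. TATAAA was in 5 of the 33, against 7.59% of windows. These matches describe letters only.

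Several of the genes are neighbours in the genome, by the GENCODE annotation on NCBIM37. *Col3a1* (chr1:45368383-45406551, plus strand) and *Col5a2* (chr1:45431166-45560127, minus strand) point toward each other. *Col4a1* (chr8:11198423-11312826, minus strand) and *Col4a2* (chr8:11312805-11449287, plus strand) share their start region. *Col18a1*, *Col6a1* and *Col6a2* follow each other on the minus strand of chromosome 10, from 76058507 to 76629293. The other high genes stand alone, with *Col1a2* at chr6:4454814-4491543 (plus), *Col1a1* at chr11:94797538-94814356 (plus), *Col15a1* at chr4:47221033-47326039 (plus), *Col16a1* at chr4:129725084-129776527 (plus) and *Col28a1* at chr6:7947808-8142617 (minus).

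The collagen genes took 0.261% of the reads of WT 1 (95% Wilson interval 0.258% to 0.265%) and 0.236% of those of WT 2 (0.233% to 0.239%). The share was 0.286% (0.282% to 0.289%) in the library labelled TRKC+/- and 0.256% in AdNTF3-Tg. Summed FPKM was 460 and 417 in the WT libraries, 506 in the library labelled TRKC+/- and 451 in AdNTF3-Tg. The library labelled TRKC+/- thus had the highest sum, 1.15 times the WT mean, and AdNTF3-Tg lay between the WT libraries at 1.03 times their mean. WT 1 was 1.10 times WT 2.

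The 11 fibrillar genes made up more than the other 31 together in each library. Their summed FPKM was 253 and 216 in the WT libraries, 270 in the library labelled TRKC+/- and 237 in AdNTF3-Tg. The 8 basement membrane genes summed to 94.1 and 89.4 FPKM in WT, 109 in the library labelled TRKC+/- and 98.0 in AdNTF3-Tg, so both mutant libraries were above both WT libraries. The 23 other genes summed to 113 and 112 FPKM in WT, 126 in the library labelled TRKC+/- and 116 in AdNTF3-Tg. Relative to the WT mean, the library labelled TRKC+/- was 1.15, 1.19 and 1.12 times higher for the fibrillar, basement membrane and other classes. The ratio of WT 1 to WT 2 was 1.17, 1.05 and 1.02 for these classes, so the fibrillar difference was no larger than that between the WT libraries.

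**Figure D1:**
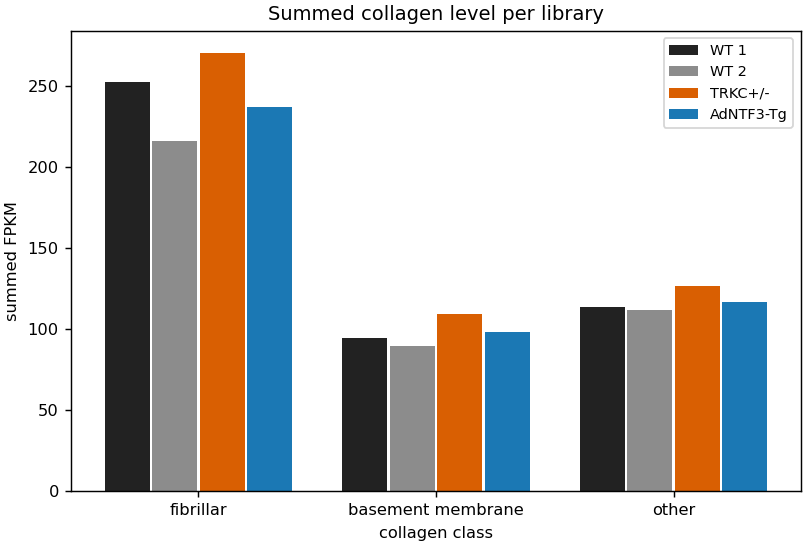
Summed FPKM (y axis, from 0) of the fibrillar, basement membrane and other collagen genes (x axis) with 1 bar for each of the 4 libraries and no error bars, since each bar is 1 pool. The library labelled TRKC+/- has the tallest bar in every class, 270, 109 and 126 FPKM, and WT 2 the shortest.

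A few genes carried most of this level. *Col5a3* alone held between 25.4% and 27.6% of the summed collagen FPKM, and the 10 highest genes held between 84.3% and 85.2%. In every library 11 genes reached 10 FPKM, and between 23 and 25 reached 1 FPKM. At the other end, 9 of the 42 had a mean under 10 reads and went into no comparison. They were *Col4a6*, *Col6a4*, *Col8a2*, *Col10a1*, *Col13a1*, *Col17a1*, *Col19a1*, *Col22a1* and *Col25a1*, with at most 20 reads in a library, that of *Col13a1* in WT 1. *Col10a1*, the collagen of hypertrophic cartilage, had 1 read, in WT 2. *Col6a6* and *Col9a1* were not listed in any library, that is, they had 0 reads, and a count of 0 allows a true level of up to 3 reads per library.

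**Figure D2:**
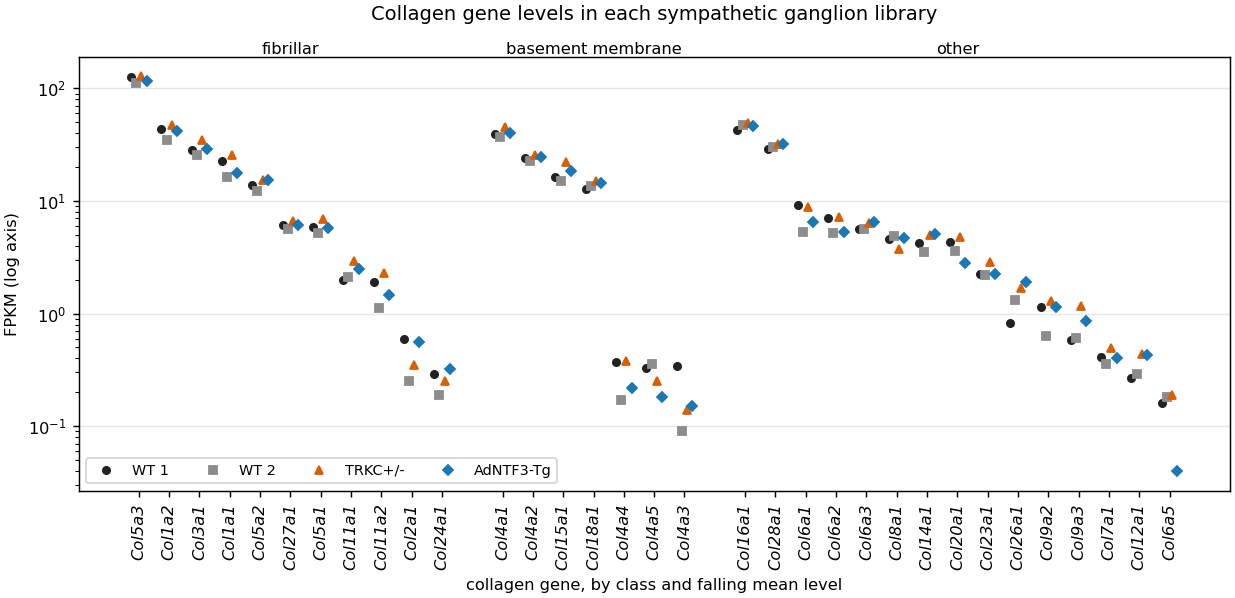
FPKM on a log axis (y) of the 33 collagen genes with a mean of at least 10 reads (x), grouped by class and ordered by mean level, with 1 point per library. *Col5a3* stands above all others at 112 to 128 FPKM, and the 4 libraries lie close together for the high genes and apart for genes under 1 FPKM.

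*Col5a3* encodes the α3 chain of type V collagen, a fibrillar collagen that starts fibrils and sets their diameter. It was at 126.89 and 112.37 FPKM in the WT libraries, 128.24 in the library labelled TRKC+/- and 116.36 in AdNTF3-Tg, and ranked between 620 and 712 among the genes listed. AdNTF3-Tg lay between the WT libraries, and the library labelled TRKC+/- was just above WT 1. On NCBIM37 the gene is at chr9:20574494-20619511 on the minus strand, with no annotated exon of another gene over its own. Against the WT mean its log2 ratio was 0.10 (0.06 to 0.14) in the library labelled TRKC+/- and -0.04 (-0.09 to 0.00) in AdNTF3-Tg, both smaller than the 0.18 between the WT libraries.

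The partner chains of type V were far lower. *Col5a2* was at 14.0 and 12.2 FPKM in WT, 15.3 in the library labelled TRKC+/- and 15.4 in AdNTF3-Tg, so both mutants were above both WT libraries. *Col5a1*, whose chain is part of most type V molecules, was at 5.86 and 5.21 FPKM in WT, 6.91 in the library labelled TRKC+/- and 5.81 in AdNTF3-Tg. The FPKM of *Col5a3* was thus between 18.6 and 21.7 times that of *Col5a1*, and between 7.55 and 9.21 times that of *Col5a2*. The lowest ratio of *Col5a3* to *Col5a2*, in AdNTF3-Tg (7.03 to 8.11), had an interval below those of both WT libraries (8.42 to 9.76 and 8.52 to 9.97). Exons of *2810430I11Rik* and *Gm13372* lie over those of *Col5a1* on the opposite strand, and since the strand setting of the counting is not given in the sources used here, their reads cannot be told apart.

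Type I collagen, the main collagen of most connective tissue, is made of *Col1a1* and *Col1a2* chains. *Col1a2* was at 43.81 and 35.15 FPKM in WT, 46.97 in the library labelled TRKC+/- and 41.74 in AdNTF3-Tg. *Col1a1* was at 22.82 and 16.48 FPKM in WT, 25.68 in the library labelled TRKC+/- and 17.91 in AdNTF3-Tg. For both genes AdNTF3-Tg lay between the WT libraries and the library labelled TRKC+/- lay above both. The ratio of *Col1a2* to *Col1a1* was 1.92 and 2.13 in WT, 1.83 in the library labelled TRKC+/- and 2.33 in AdNTF3-Tg; type I molecules usually hold the chains in the opposite proportion, and the RNA ratio is no measure of the protein. The log2 ratio of *Col1a1* in the library labelled TRKC+/- was 0.38 (0.27 to 0.50), 0.17 over WT 1 and 0.64 over WT 2. Exons of *Gm17329* lie over those of *Col1a1* on the opposite strand.

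*Col3a1*, the homotrimeric partner of type I in elastic tissue, had one of the steadier differences. It was at 28.45 and 25.48 FPKM in WT, 34.76 in the library labelled TRKC+/- and 28.95 in AdNTF3-Tg. In the library labelled TRKC+/- the log2 ratio was 0.37 (0.28 to 0.46), 0.29 over WT 1 and 0.45 over WT 2, against 0.16 between the WT libraries. In AdNTF3-Tg it was 0.10 (0.01 to 0.19).

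Among the lower fibrillar genes, chosen for mention after their values were seen, *Col11a1* and *Col11a2*, which encode type XI chains, passed the cutoff in the library labelled TRKC+/-. *Col11a1* had 124 and 134 reads in WT, 190 in the library labelled TRKC+/- and 157 in AdNTF3-Tg, so the mutants were both above WT. Its log2 ratio in the library labelled TRKC+/- was 0.51 (0.26 to 0.81), and the ratio over WT 2 was 0.47. *Col11a2* had 92 and 55 reads in WT, 113 in the library labelled TRKC+/- and 72 in AdNTF3-Tg, with a log2 ratio of 0.57 in the former, beside 0.72 between the WT libraries. *Col2a1*, the cartilage fibril collagen, had between 11 and 25 reads.

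Type IV of the ubiquitous kind is built from *Col4a1* and *Col4a2*. The genes lie head to head, and on GRCm38.p6 the RefSeq starts, at chr8:11312805 for *Col4a2* and chr8:11312826 for *Col4a1*, overlap by 22 bases. This stretch, on the strand of *Col4a2*, is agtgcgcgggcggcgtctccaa, printed because reads over it could belong to either gene. *Col4a1* was at 39.57 and 37.07 FPKM in WT, 45.23 in the library labelled TRKC+/- and 39.95 in AdNTF3-Tg. *Col4a2* was at 24.26 and 22.85 FPKM in WT, 25.62 in the library labelled TRKC+/- and 24.45 in AdNTF3-Tg. Both mutants were above both WT libraries for both genes, by little in AdNTF3-Tg.

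The pair kept near the same ratio, 1.63, 1.62 and 1.63 in WT 1, WT 2 and AdNTF3-Tg. It was 1.77 (1.66 to 1.88) in the library labelled TRKC+/-, an interval that overlapped those of the other libraries. The log2 ratio of *Col4a1* in that library was 0.24 (0.17 to 0.31) and that of *Col4a2* 0.12 (0.03 to 0.21). The chains of specialised basement membranes were near the detection floor. *Col4a3* had 25 and 7 reads in WT and 11 in each mutant, *Col4a4* between 12 and 26, and *Col4a6* at most 2. *Col4a5* had 18 and 20 reads in WT, 14 in the library labelled TRKC+/- and 10 in AdNTF3-Tg, below both WT libraries in each mutant. In AdNTF3-Tg its log2 ratio was -0.67, past the cutoff against each WT library, with a counting interval of -2.10 to 0.10.

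*Col15a1* encodes a proteoglycan collagen that ties basement membrane to the fibrils around it. It was at 16.31 and 15.10 FPKM in WT, 22.27 in the library labelled TRKC+/- and 18.47 in AdNTF3-Tg. Both mutants lay above both WT libraries, which differed by 0.11. In the library labelled TRKC+/- the log2 ratio was 0.50 (0.39 to 0.62), 0.45 over WT 1 and 0.56 over WT 2, so the gene passed the cutoff against the WT mean and not against WT 1, nor, at 0.4962, with DESeq2 size factors in place of the deposited scaling. In AdNTF3-Tg it was 0.23 (0.11 to 0.35). *Gm12426* lies over it on the opposite strand. *Col18a1*, the source of endostatin, was at 12.9 and 13.7 FPKM in WT, 15.1 in the library labelled TRKC+/- and 14.5 in AdNTF3-Tg, above WT in both with log2 ratios of 0.18 and 0.13.

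In the other class, 2 genes reached 10 FPKM. *Col16a1*, a fibril-associated collagen, was at 42.83 and 47.09 FPKM in WT, 49.73 in the library labelled TRKC+/- and 45.92 in AdNTF3-Tg. It ranked beside *Col1a2* and *Col4a1* in level, and was one of few high genes with WT 2 above WT 1. *Col28a1*, a collagen known from peripheral nerve and the basement membranes of its glia, was at 28.83 and 30.26 FPKM in WT, 32.26 in the library labelled TRKC+/- and 32.21 in AdNTF3-Tg. Its log2 ratio was 0.13 (0.02 to 0.23) and 0.12 (0.02 to 0.22), so the mutants were close to each other and just above WT.

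*Col9a3*, a type IX chain best known from cartilage, was the only collagen gene past the cutoff against each WT library in the library labelled TRKC+/-. It had 14 and 15 reads in WT, 29 in the library labelled TRKC+/- and 21 in AdNTF3-Tg. The log2 ratio was 0.87 (0.18 to 1.77), 0.90 over WT 1 and 0.84 over WT 2. *Tcfl5* lies over its exons on the opposite strand, and the type IX gene *Col9a1* was not listed. *Col9a2* had 27 and 15 reads in WT, 31 in the library labelled TRKC+/- and 27 in AdNTF3-Tg, with AdNTF3-Tg level with WT 1.

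The remaining genes of this class named here were chosen after their values were seen. The type VI chains, which form beaded filaments, differed between the WT libraries to unequal degrees. *Col6a1* was at 9.17 and 5.32 FPKM in WT, 8.79 in the library labelled TRKC+/- and 6.56 in AdNTF3-Tg, so both mutants lay between the WT libraries. *Col6a3* was at 5.68 and 5.60 FPKM in WT, 6.33 in the library labelled TRKC+/- and 6.51 in AdNTF3-Tg. The FPKM ratio of *Col6a1* to *Col6a3* was accordingly 1.61 (1.39 to 1.87) in WT 1 and 0.95 (0.79 to 1.13) in WT 2, and it was 1.39 (1.20 to 1.60) in the library labelled TRKC+/- and 1.01 in AdNTF3-Tg. *Col8a1*, a short-chain collagen of vessel walls, was the only one of the 33 genes with a counting interval below 0 in the library labelled TRKC+/-. It had 204 and 219 reads in WT, 167 in that library and 209 in AdNTF3-Tg, and its log2 ratio was -0.35 (-0.63 to -0.10). *Col20a1* had 156 and 131 reads in WT, 175 in the library labelled TRKC+/- and 102 in AdNTF3-Tg, with a log2 ratio of -0.48 (-0.84 to -0.17) in AdNTF3-Tg. *Col14a1*, which binds fibrils, had 236 and 198 reads in WT and 285 in each mutant.

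At the cutoff, few collagen genes passed in AdNTF3-Tg, and more, all of them higher, in the library labelled TRKC+/-. In the library labelled TRKC+/- 6 of the 33 were higher than the WT mean, *Col9a3*, *Col26a1*, *Col11a2*, *Col11a1*, *Col12a1* and *Col15a1*, where 1.87% of the 13677 genes compared were. None was lower, against 2.85% of all genes. Against each WT library separately 1 was higher (0.812% of all genes) and 0 lower (1.41%). In AdNTF3-Tg *Col26a1* was higher (2.35% of all genes) and *Col4a5* and *Col6a5* were lower (4.62%). Against each WT library 0 were higher (1.06%) and the same 2 were lower (2.38%), *Col6a5* on 13 and 15 reads in WT, 16 in the library labelled TRKC+/- and 3 in AdNTF3-Tg. *Col26a1* had 19 and 31 reads in WT, 40 in the library labelled TRKC+/- and 44 in AdNTF3-Tg, and its WT libraries differed by 0.64 on the log2 scale.

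Between the WT libraries about as many collagen genes passed the cutoff. The share of all genes higher in WT 1 was also larger than the 1.87% higher in the library labelled TRKC+/-. WT 1 was higher than WT 2 by the cutoff for 6 collagen genes, *Col11a2*, *Col2a1*, *Col4a3*, *Col4a4*, *Col6a1* and *Col9a2*, against 5.27% of all genes. *Col26a1* was the only one higher in WT 2 (3.76%). All of these but *Col6a1* and *Col11a2* had at most 31 reads in either WT library.

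Small differences in 1 direction were more frequent among the collagen genes of the library labelled TRKC+/-. There, 27 of the 33 were above both WT libraries, where 32.4% of all genes were, and 2 were below both, *Col4a5* and *Col8a1* (30.8% of all genes). By class, 9 of 11 fibrillar, 5 of 7 basement membrane and 13 of 15 other genes were above both. Restricted to genes with a mean of at least 100 reads, 19 of 21 were above, against 33.1% of all such genes. The counting interval lay above 0 for 20 of the 33 (8.99% of all genes) and below 0 for 1 (8.71%). The median log2 ratio of the 33 was 0.25, from -0.39 to 0.87, where that of all genes was 0.0012. It was 0.16 with WT 1 alone as control and 0.36 with WT 2 alone, and 27 and 31 of the 33 were above that control, where 50.5% and 50.6% of all genes were.

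AdNTF3-Tg showed less of this. Above both WT libraries were 15 of the 33 (34.4% of all genes), and below both were 3, *Col4a5*, *Col6a5* and *Col20a1* (34.7%). The counting interval was above 0 for 8 (13.1% of all genes) and below 0 for 3, *Col1a1*, *Col20a1* and *Col6a5* (14.0%). The median log2 ratio was 0.066, from -0.95 to 0.76, against -0.0015 for all genes, and it was 0.011 with WT 1 alone as control and 0.18 with WT 2 alone. Above WT 1 were 17 of the 33, where 48.7% of all genes were, and above WT 2 were 28 (50.4%). The mutants share the WT libraries as controls, so their ratios are not independent of each other.

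The WT libraries set the scale of these differences. The median log2 ratio of WT 1 over WT 2 was 0.15 for the 33 collagen genes and 0.0076 for all genes, and the counting interval lay above 0 for 13 collagen genes (12.5% of all genes) and below 0 for 1, *Col16a1* (9.99%). The library labelled TRKC+/- was the highest of the 4 for 23 of the 33 genes, AdNTF3-Tg for 5, WT 1 for 3 and WT 2 for 2. WT 2 was the lowest for 22. The highest and lowest library were not counted over all genes, so these numbers have no share beside them. The median difference between the library labelled TRKC+/- and the WT mean was thus larger than that between the WT pools. Over WT 1 alone it was 0.16, near that of WT 1 over WT 2, and over WT 2 alone it was 0.36. The number of WT pools, 2, gives only the difference between them as a measure of the spread.

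**Figure D3:**
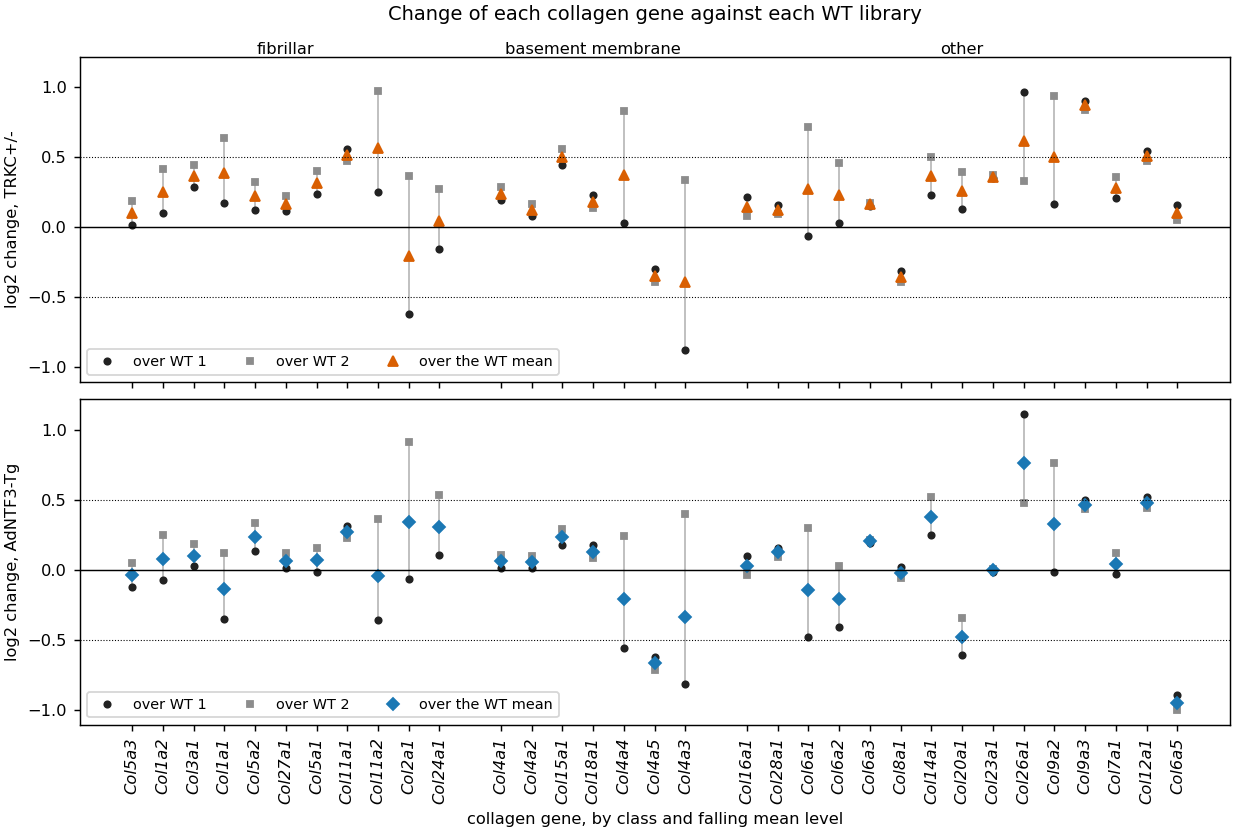
Log2 ratio (y axis) of each of the 33 collagen genes (x axis, by class) in the library labelled TRKC+/- (upper panel) and in AdNTF3-Tg (lower panel), over the WT mean (coloured), over WT 1 (black circles) and over WT 2 (grey squares), with grey lines joining the values over the WT libraries and dotted lines at 0.5 and -0.5. In the upper panel 27 genes have both WT-specific points above 0, and in the lower panel 15 do.

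A test across all genes was run with edgeR's quasi-likelihood method, taking the WT libraries as replicates and assuming that a lone mutant library varies as they do. In the library labelled TRKC+/- 0 of the 33 collagen genes passed a Benjamini-Hochberg adjusted p of 0.05 (0.0146% of all genes). Unadjusted, 6 were under 0.05, *Col15a1*, *Col3a1*, *Col4a1*, *Col11a1*, *Col5a1* and *Col1a1*, all higher (2.11% of all genes). In AdNTF3-Tg 0 passed the adjusted threshold, as did 0.0% of all genes, and 3 were under 0.05 unadjusted, *Col6a5*, *Col14a1* and *Col15a1* (6.2% of all genes). With 1 library per mutant and 2 WT pools, a gene that misses the threshold is not shown to be at the WT level.

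Most collagen transcripts are long, so values are given beside those of other long genes. Of the 4022 genes with a listed length of at least 4000 bases, a limit set after the values were seen, 35.3% were above both WT libraries in the library labelled TRKC+/-, and of the 28 collagen genes among them 23 were. In AdNTF3-Tg 54.6% of the long genes were above both WT libraries, and 13 of the 28 collagen genes were. The part of transcript length in the collagen values was not tested.

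Markers of fibroblasts, a main source of collagen in most tissues, differed more between the WT libraries, in sum and in median, than between a mutant and the WT mean. The summed FPKM of 7 fibroblast markers was 248 in WT 1 and 185 in WT 2, and 214 and 204 in the library labelled TRKC+/- and AdNTF3-Tg. The sum is mostly *Dcn*, and in it both mutants lay between the WT libraries. Over the markers, the median log2 ratio was 0.13 in the library labelled TRKC+/-, -0.12 in AdNTF3-Tg and 0.45 for WT 1 over WT 2. By gene, 3 of 7 were above both WT libraries and 0 below both in the library labelled TRKC+/-, and 1 was above and 3 were below both in AdNTF3-Tg. The shares of all genes were 32.4% and 30.8% in the former, and 34.4% and 34.7% in the latter. *Dpp4* was past the cutoff in AdNTF3-Tg against each WT library, on 24 reads in each WT library, 27 in the library labelled TRKC+/- and 12 in AdNTF3-Tg. The glial marker *Fabp7* was at 341.7 and 210.87 FPKM in WT, 285.73 in the library labelled TRKC+/- and 286.98 in AdNTF3-Tg, and *S100b* was at 25.5, 16.57, 23.48 and 18.7 FPKM in the same order, so both mutants lay between the WT libraries for both genes. *Sox10*, which specifies glia, was at 42.5 and 36.8 FPKM in WT, 50.3 in the library labelled TRKC+/-, above both WT libraries, and 41.3 in AdNTF3-Tg.

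In AdNTF3-Tg several other marker sums were below both WT libraries. The 6 endothelial markers summed to 37.15 and 34.43 FPKM in WT, 37.32 in the library labelled TRKC+/- and 32.07 in AdNTF3-Tg, and the 6 mural markers to 45.25, 38.43, 40.43 and 37.47 FPKM in the same order. The 5 macrophage markers summed to 88.28 and 72.67 FPKM in WT, 79.23 in the library labelled TRKC+/- and 65.08 in AdNTF3-Tg, and the 4 perineurial markers to between 28.1 and 37.9 FPKM. The 4 adipocyte markers, mostly *Fabp4*, summed to 279 and 250 FPKM in WT, 160 in the library labelled TRKC+/- and 195 in AdNTF3-Tg. The endothelial, mural, macrophage, adipocyte and neuron sums of AdNTF3-Tg were thus below both WT libraries, the neuron sum at 8157 FPKM against 8670 and 8454 in WT. In the library labelled TRKC+/- the endothelial sum and the neuron sum, at 8793 FPKM, were above both WT libraries, the muscle, fibroblast, perineurial, mural and macrophage sums lay between them, and the adipocyte sum lay below both. The endothelial sum there was close to that of WT 1, and by gene 1 of its 6 markers was above both WT libraries (32.4% of all genes) and 3 were below both (30.8%). The part of these cell types in the collagen values was not tested.

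Of the 20 enzymes and chaperones that fold collagen in the endoplasmic reticulum, 0 passed the cutoff in either mutant, as few genes did overall (1.87% higher and 2.85% lower in the library labelled TRKC+/-, 2.35% and 4.62% in AdNTF3-Tg). In the library labelled TRKC+/- 10 of the 20 were above both WT libraries (32.4% of all genes) and 2 below both (30.8%), and in AdNTF3-Tg 5 were above (34.4%) and 6 below (34.7%). Their median log2 ratio was 0.056 and -0.023, respectively. *Serpinh1*, the collagen chaperone HSP47, was at 99.4 and 90.2 FPKM in WT, 114 in the library labelled TRKC+/- and 95.2 in AdNTF3-Tg, with a log2 ratio of 0.27 in the former. *P4hb*, a subunit of prolyl 4-hydroxylase, and *Ppib*, a prolyl isomerase, were between 143 and 151 FPKM in all libraries.

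Procollagen cleavage and crosslinking genes had a median log2 ratio of -0.17 in AdNTF3-Tg over 9 genes, 5 of them below both WT libraries, where 34.7% of all genes were. The corresponding median was 0.090 in the library labelled TRKC+/- and 0.31 between the WT libraries. *Pcolce*, which speeds the removal of the C-propeptide, was at 81.2 and 64.9 FPKM in WT, 79.3 in the library labelled TRKC+/- and 64.7 in AdNTF3-Tg. *Bmp1*, the C-proteinase, was at 23.3 and 18.8 FPKM in WT, 22.0 in the library labelled TRKC+/- and 19.7 in AdNTF3-Tg. AdNTF3-Tg thus stayed near WT 2 for both.

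Among proteoglycans that bind fibrils, the highest, *Dcn*, was at 200 and 146 FPKM in WT, 165 in the library labelled TRKC+/- and 162 in AdNTF3-Tg, and the next, *Bgn*, was at 56.1, 45.2, 54.7 and 44.6 FPKM in the same order. Over 7 genes the median log2 ratio was 0.11 in the library labelled TRKC+/-, -0.097 in AdNTF3-Tg and 0.31 for WT 1 over WT 2. For the library labelled TRKC+/-, 2 of the 7 were above both WT libraries (32.4% of all genes) and 0 below both (30.8%), and in AdNTF3-Tg 3 were above (34.4%) and 2 below (34.7%). *Aspn* was past the cutoff in the library labelled TRKC+/- against each WT library, on 7 and 10 reads in WT, 17 there and 12 in AdNTF3-Tg.

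The laminins, nidogens, perlecan and agrin, which form basement membranes with type IV collagen, were above both WT libraries for 11 of 13 genes in the library labelled TRKC+/- (32.4% of all genes) and for 8 of 13 in AdNTF3-Tg (34.4%). None was below both in either mutant. Of all genes with a listed length of at least 4000 bases, 35.3% and 54.6% were above both WT libraries in these mutants. The part of transcript length in this list was not tested. *Agrn* was at 22.4 and 20.8 FPKM in WT, 25.2 in the library labelled TRKC+/- and 23.3 in AdNTF3-Tg, and *Nid1* was at 22.0, 18.2, 23.2 and 23.2 FPKM in the same order. The median log2 ratio of this list was 0.16 in the library labelled TRKC+/-, 0.17 in AdNTF3-Tg and 0.16 for WT 1 over WT 2.

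Among genes of collagen breakdown, the median log2 ratio over 8 genes was 0.11 in the library labelled TRKC+/-, -0.17 in AdNTF3-Tg and 0.18 for WT 1 over WT 2. *Timp2* and *Timp3*, inhibitors of the metalloproteinases, and *Mmp2*, a gelatinase, were the highest. *Timp3* was at 68.5 and 59.3 FPKM in WT, 77.9 in the library labelled TRKC+/- and 68.8 in AdNTF3-Tg. *Ctsk*, a cathepsin that cuts collagen helices, was past the cutoff in the library labelled TRKC+/- against each WT library. It was at 8.21 and 5.75 FPKM in WT, 4.03 there and 4.74 in AdNTF3-Tg, with log2 ratios of -0.78 (-1.27 to -0.34) and -0.55 (-1.02 to -0.13). *Timp4* was past the cutoff in AdNTF3-Tg against each WT library, on 20 and 29 reads in WT, 15 in the library labelled TRKC+/- and 11 in AdNTF3-Tg.

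Of the receptors for collagen, *Itgb1*, the β1 integrin chain, was between 131 and 134 FPKM in all libraries. *Ddr1*, a receptor tyrosine kinase that binds collagen, was at 16.48 and 17.62 FPKM in WT, 18.76 in the library labelled TRKC+/- and 20.04 in AdNTF3-Tg, above WT in both. The median log2 ratio of 6 receptor genes was 0.018 in the library labelled TRKC+/-, 0.14 in AdNTF3-Tg and 0.081 for WT 1 over WT 2. In AdNTF3-Tg 3 of the 6 were above both WT libraries (34.4% of all genes) and 0 below both (34.7%), and in the library labelled TRKC+/- 2 were above (32.4%) and 1 was below (30.8%).

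**Figure D4:**
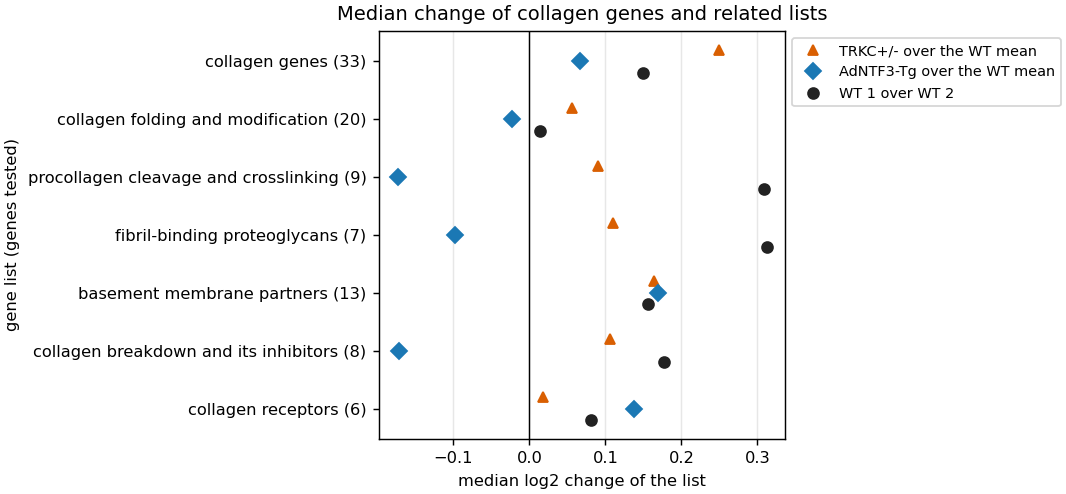
Median log2 ratio (x axis) of the collagen genes and 6 related gene lists (y axis, with the number of genes compared), for the library labelled TRKC+/- over the WT mean (orange triangles), AdNTF3-Tg over the WT mean (blue diamonds) and WT 1 over WT 2 (black circles). For the collagen genes the triangle, at 0.25, lies beyond the circle at 0.15, while for cleavage and proteoglycan genes the circle, at 0.31, lies farthest to the right.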

How the data were processed

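The values deposited per Entrez gene were an unnormalized expected count and an FPKM, the count scaled to gene length and library total. Per the methods of the study, reads after oligo(dT) selection were filtered with SOAPnuke 1.5.2 and mapped to mm9 with HISAT2 2.0.4; the submitters' processing notes name RSEM and mm10 instead. Genes with no reads are not listed.

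Members and lists were chosen with earlier results of these data known. RefSeq names (GRCm38.p6) matched 17619 of 17667 identifiers. Genes with a mean expected count of at least 10 over the 4 libraries were compared. Expected counts were rounded for counting intervals, edgeR 4.0.16 (TMM, quasi-likelihood, Benjamini-Hochberg) and DESeq2 1.42.0 size factors, tested on simulated data. Named by rule were members with a mean of at least 10 FPKM, those past 0.5 against each WT library with at least 20 reads in 1 library, partner chains of these, and, from each further list, the highest genes and those past 0.5 against each WT library. Pseudocounts, filters, scalings, cutoffs and controls were varied. The pools are the unit of replication, and p-values measure the spread between WT pools only. Some glial markers are not reported here. Positions are from GENCODE on NCBIM37 unless GRCm38.p6 is named.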

Additional observations from a re-analysis of the deposited data

How the results depend on the processing

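The median log2 ratio of the collagen genes kept its sign under every alternative computed, from 0.16 to 0.36 in the library labelled TRKC+/- and from 0.011 to 0.18 in AdNTF3-Tg, each extreme with a single WT library as control. Median centring shifted values by under 0.1. The counts at the cutoff moved. With a pseudocount of 0.01, 3 genes were higher in AdNTF3-Tg and 1 lower in the library labelled TRKC+/-. With a pseudocount of 1, 0 were higher in either mutant, 0 were lower in AdNTF3-Tg, and 1 differed between the WT libraries. Without the count filter, 4 were lower in AdNTF3-Tg, 1 lower in the library labelled TRKC+/- and 11, against 7, differed between the WT libraries. Among genes averaging 1 FPKM or more, 0 were lower in AdNTF3-Tg, and by TMM-scaled log2 CPM 2 were higher there. With a cutoff of 1, 0 were higher or lower in AdNTF3-Tg, 0 higher in the library labelled TRKC+/- and 1 differed between the WT libraries. Against each WT library, 1 was higher in the library labelled TRKC+/- and 0 in AdNTF3-Tg; by edgeR's adjusted p, 0 were higher or lower in either. Without WT replicate 1 or 2, the counts were 4 and 2 higher and 2 and 5 lower in AdNTF3-Tg, and 8 and 4 higher and 0 and 2 lower in the library labelled TRKC+/-. The number of collagen genes above both WT libraries, chosen after the data were seen, was 27 and 15 as reported, and 28 and 17 in AdNTF3-Tg, 31 and 27 in the library labelled TRKC+/-, without WT replicate 1 or 2. By TMM or DESeq2 size factors it was 27 in the latter. Apart from stating where the counts moved, the cause was not tested. No paired analysis was possible because the labels number the WT libraries alone and tie neither of them to a mutant.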
